A study of Fukomys damarensis and Heterocephalus glaber and Mus musculus with 160 samples.

Results

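The cardiac myosin heavy chain genes of the mouse, Myh6 (ENSMUSG00000040752.16) and Myh7 (ENSMUSG00000053093.16), were followed through 3 histone marks in adult heart and liver. They lie one after the other on the minus strand of chromosome 14 in GRCm38, with Myh6 at about 54.942 to 54.967 Mb and Myh7 at about 54.971 to 54.995 Mb. Both ends are known here to the nearest kb, and "start" below means the right-hand end, where transcription of a minus-strand gene begins. All deposited peaks that overlap chr14:54930000-55005000 were taken from all 29 mouse histone lists. They numbered 147 of the 1711588 peaks in those lists. The 29 lists are a subset of 116 peak lists and 160 samples in the series.

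The series compared regulatory chromatin of liver and heart in mole-rats, guinea pig and mouse by ChIP-seq, which sequences the DNA recovered with an antibody to a histone mark and reports stretches enriched over an input control as peaks. The mice were wild-type C57BL/6J adult males of 2 months. No fetal or stressed heart was among them, so the contrast below is between the genes and not between ages. Heart was sampled with H3K4me3 (6 lists), H3K27ac (6 lists) and H3K4me1 (5 lists) from 12 animals or pools, of which 1 was a pool of 3 animals that counts as 1 replicate. Liver gave 4 lists for each mark, from the same 4 animals throughout. No animal gave both tissues. The material was whole diced organ, not sorted cells, so fewer cells of a type and less signal per cell cannot be told apart. Chambers of the heart were not separated.

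Myh6 encodes alpha myosin heavy chain, the fast motor of the sarcomere that predominates in the adult mouse heart. Myh7 encodes beta myosin heavy chain, a slower and more economical motor that predominates in the fetal mouse ventricle and in slow skeletal muscle. The shift from Myh7 to Myh6 around birth, and its reversal in stressed hearts, made the pair a standard example of a developmental isoform switch. The DNA between the genes is known to carry the Myh6 promoter and a promoter for noncoding RNA running antisense to Myh7. H3K4me3 marks active promoters, H3K27ac active promoters and enhancers, and H3K4me1 enhancers that are active or poised. No RNA was analysed here.

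Peak lists carry no read depth, and the lists differed in length. Heart lists held 18135 to 32785 peaks for H3K4me3, 57663 to 109724 for H3K27ac and 20521 to 129914 for H3K4me1, and liver lists held 17431 to 19301, 56871 to 63479 and 86486 to 113889. Labels were checked outside the 75 kb window with the Jaccard index, the bases 2 lists share over the bases in either. All 12 liver lists and 16 of the 17 heart lists were nearer to their own tissue. The exception was the library labelled heart H3K4me3 of animal 6837, with a mean index of 0.489 to the other heart lists and 0.550 to the liver lists. It held 1170 of the 1428 regions (81.9%) that were in every liver list and in no other heart list. The corresponding share was 31.2% for the H3K4me3 pool and at most 1.15% in the other 4 heart lists of that mark. The H3K27ac list of animal 6837 held 0.539% of such regions. The H3K4me3 tests and means below are therefore also given without 6837. The shortest H3K4me1 heart list, the pool with 20521 peaks, had no peak in the window.

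In the heart, H3K4me3 and H3K27ac covered the first part of Myh6, the 4 kb between the genes and the adjoining last 4 kb of Myh7, and neither mark formed a domain at the start of Myh7. All 6 H3K4me3 heart lists had peaks in the window (6 to 11 each, 52 in all) and so did all 6 H3K27ac heart lists (7 to 16 each, 67 in all). None of the 4 H3K4me3 or 4 H3K27ac liver lists had one. H3K4me1 lay elsewhere: 4 of 5 heart lists held 26 peaks, none of them over Myh6, and 1 of 4 liver lists held 2 peaks far upstream of Myh7.

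**Figure D1:**
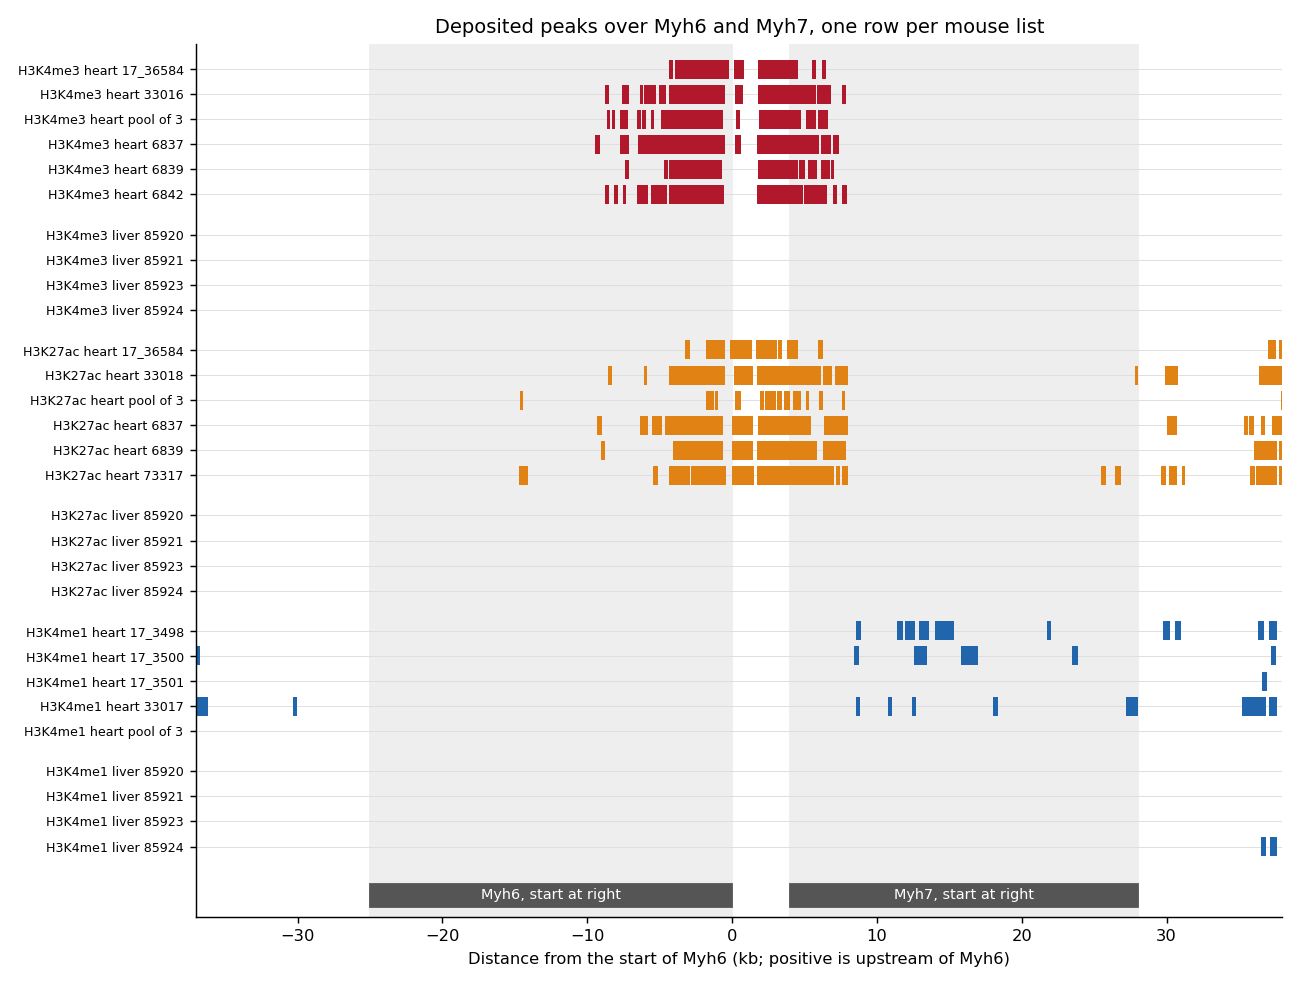
Every deposited peak over the 2 genes, with 1 row per list and the distance from the start of Myh6 in kb on the horizontal axis. Grey bands are the gene spans, both read from right to left. Red (H3K4me3) and most orange (H3K27ac) blocks of the heart lists gather around the Myh6 start and the gap between the genes. Orange blocks also lie upstream of Myh7 in all 6 heart lists. Blue (H3K4me1) blocks lie mostly over Myh7 and upstream of it, with some downstream of Myh6 in 2 heart lists. The liver rows are empty but for 2 H3K4me1 peaks.

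H3K4me3 over Myh6 was broad. The main peak inside the gene was 3728 bases wide in animal 17_36584, 3903 in 33016, 4260 in the pool, 6000 in 6837, 3656 in 6839 and 3799 in 6842. It began near the start of Myh6 and ran into the gene body, and chr14:54963036-54966288 was covered in all 6 heart lists. In width it exceeded 98.3% to 99.7% of the peaks of its own list, ranking between place 51 and place 510. In deposited fold enrichment it was unexceptional. The fold was 39.3 in 17_36584, 25.6 in 33016, 12.8 in the pool, 41.4 in 6837, 20.3 in 6839 and 44.2 in 6842, which was above 46.3% to 81.7% of the peaks of the same list. The summit lay 1368 to 1736 bases inside the gene in these lists. Smaller H3K4me3 peaks continued up to the first 10 kb of Myh6, and none was found over the remaining 15 kb of the gene in any list.

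A bare stretch followed near the start of Myh6. Between the last covered base inside the gene and the next peak, H3K4me3 left 391, 648, 908 and 699 bases uncovered in 17_36584, 33016, the pool and 6837. In these 4 lists a small peak then began 155 to 270 bases upstream of the start. The lists of 6839 and 6842 lacked this small peak, and their gaps were 2521 and 2239 bases. Where present, the small peak ended at chr14:54967530 to 54967848. The next peak of those 4 lists began at chr14:54968717 to 54968838, so a second and longer bare stretch lay between the genes. H3K27ac was also interrupted near the start in all 6 heart lists, with gaps of 338 to 1176 bases and a median of 609.5. In 17_36584, 6839 and 73317 its next peak began at chr14:54966869, 54966993 and 54966961, and so covered the rounded start. Since the start is known to the nearest kb only, the offset of the gap from the true start was not resolved.

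Between the genes both marks resumed. H3K4me3 covered chr14:54968838-54971533 in all 6 heart lists, a stretch that runs from the space between the genes into the last part of Myh7. The widest peak here was 2729 bases in 17_36584, 4015 in 33016, 2948 in the pool, 4252 in 6837, 2736 in 6839 and 3187 in 6842. Its width exceeded 93.7% to 99.4% of the peaks of its list. The fold was 8.40 in 17_36584, 29.9 in 33016, 5.99 in the pool, 33.0 in 6837, 17.1 in 6839 and 21.4 in 6842. In 5 of 6 lists the H3K4me3 fold was higher inside Myh6 than between the genes, and animal 33016 was the exception. For H3K27ac it was higher inside Myh6 in 1 of 6 lists, and in 73317 1 peak across the start held the highest fold of both.

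**Figure D2:**
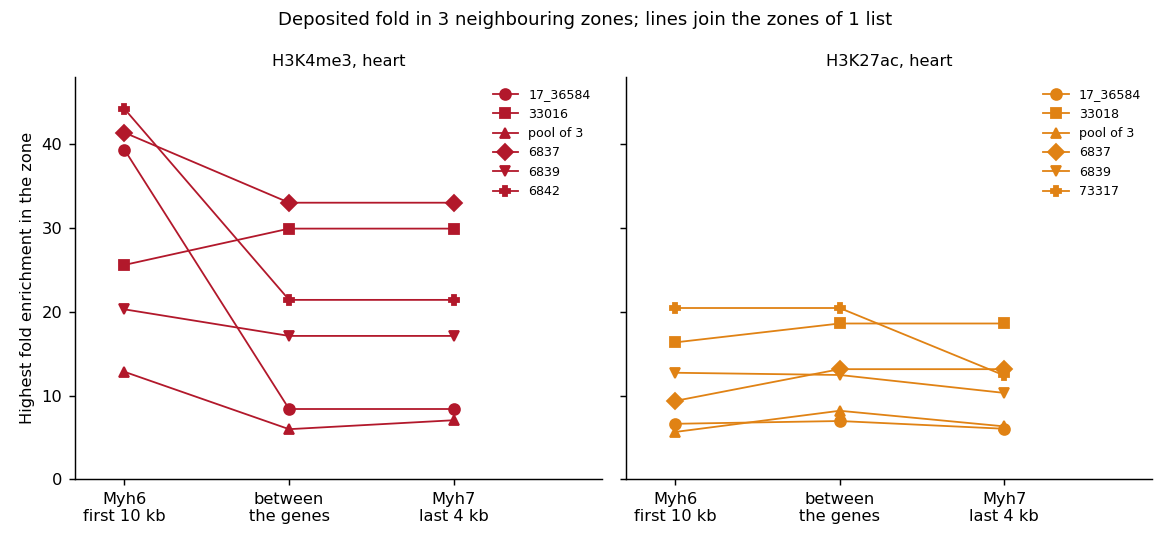
Highest deposited fold enrichment in 3 neighbouring zones, with lines that join the zones of 1 heart list and markers that tell the animals apart; a peak that spans 2 zones counts in both. H3K4me3 drops from the Myh6 zone to the space between the genes in all lists but 33016, while H3K27ac differs less between these 2 zones.

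H3K27ac covered much of the space between the genes, amounting to 83.5% of its 4 kb in 17_36584, 91.0% in 33018, 54.1% in the pool, 91.3% in 6837, 92.4% in 6839 and 94.4% in 73317. The pool was the lowest, and its H3K27ac peaks there were at most 738 bases wide. H3K4me3 covered 63.5% ± 7.06 of the same zone (SD, n = 6), or 63.0% ± 7.74 without 6837 (n = 5). In the pool H3K4me3 covered 60.6%, more than H3K27ac did. Inside the first 10 kb of Myh6, H3K4me3 covered 56.1% ± 12.5 (n = 6; 53.3% ± 11.7 without 6837, n = 5) and H3K27ac 34.2% ± 18.1 (n = 6). The 2 marks shared 4 heart animals or pools, and the lists differ in length between marks, so the marks were not tested against each other.

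H3K4me3 and H3K27ac overlapped closely when all heart lists were counted together, and to a varying degree within single hearts. Over both genes and the space between them, 14826 bases lay in an H3K4me3 peak of at least 1 heart list and 15842 in an H3K27ac peak, and 12603 bases were in both. That is 85.0% of the H3K4me3 bases and 79.6% of the H3K27ac bases, or 85.2% and 76.9% without 6837. In the hearts with both marks measured, H3K27ac covered 59.1% of the H3K4me3 bases of the window in 17_36584, 35.4% in the pool, 82.5% in 6837 and 88.9% in 6839. In the same order, H3K4me3 covered 69.6%, 83.2%, 71.4% and 61.5% of the H3K27ac bases. Over both genes and the space between them, H3K4me1 was separate from H3K4me3 and nearly so from H3K27ac. Upstream of Myh7, H3K4me1 did overlap H3K27ac, as described below. The pool was the only heart with H3K4me1 and another mark, and it had no H3K4me1 peak in the window. Of the 7112 bases in an H3K4me1 peak of any heart list over the same interval, 0 were in an H3K4me3 peak and 157 (2.21%) were in an H3K27ac peak.

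Myh7, the fetal and slow isoform gene, carried H3K4me3 over its far end only. Coverage of the last 4 kb, the part next to Myh6, was 28.1% in 17_36584, 76.1% in 33016, 53.8% in the pool, 77.0% in 6837, 62.2% in 6839 and 76.7% in 6842. Over the rest of the gene, its start and the 8 kb upstream, no H3K4me3 peak was present in any of the 6 heart or 4 liver lists. H3K27ac covered 66.8% ± 32.0 of the last 4 kb (n = 6) and little beyond it. Its peaks reached the 4 kb around the Myh7 start in 33018, which covered 7.65% of that zone, and in 73317, which covered 17.5%. The other 4 lists had none, although a peak of 6837 at chr14:54997043-54997712 lay just outside the zone. With 1 kb on each side of the start 1 of 6 lists had an H3K27ac peak, and with 5 kb 3 of 6. The count thus depends on the zone, around a start known to the nearest kb only.

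**Figure D3:**
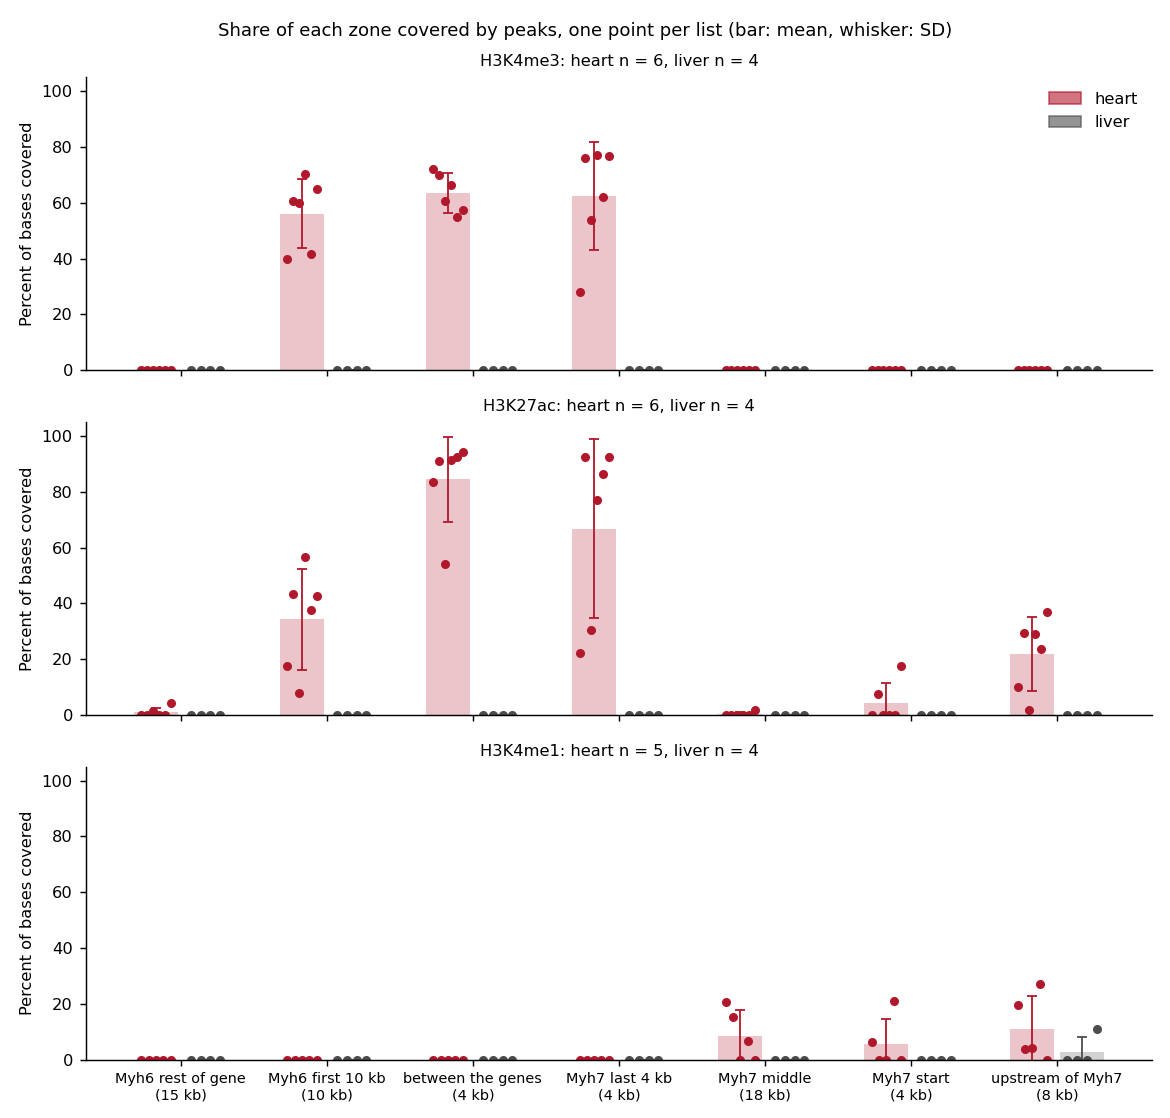
Percent of the bases of each zone covered by peaks, with 1 point per list, bars at the mean and whiskers of 1 SD; zones run from the far end of Myh6 (left) to the DNA upstream of Myh7 (right). Heart lists of H3K4me3 and H3K27ac are high in the 3 zones around the Myh6 start and liver lists are at 0 there, and the 18 kb middle of Myh7 is covered mainly by H3K4me1, with small amounts of H3K27ac in 2 lists.

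The start zones were compared within each heart list, taking 2 kb on each side of the start. H3K4me3 covered 66.3% of the Myh6 zone in 17_36584, 58.0% in 33016, 44.6% in the pool, 54.4% in 6837, 37.0% in 6839 and 44.0% in 6842, against 0% of the Myh7 zone in all 6. All 6 lists lay on the same side. The mean difference was 50.7 ± 10.8 percentage points (SD, n = 6; two-sided exact sign-flip test, p = 0.0312, the smallest 6 lists allow; Benjamini-Hochberg adjusted over the 3 marks, 0.0469). Without 6837 it was 50.0 points, with an adjusted p of 0.0938 by the same exact test.

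H3K27ac covered 79.3% of the Myh6 start zone in 17_36584, 78.1% in 33018, 32.3% in the pool, 75.8% in 6837, 77.5% in 6839 and 84.4% in 73317. The pool again stood lowest, and no list had more coverage at Myh7. The difference to the Myh7 zone averaged 67.1 ± 17.6 points (n = 6, exact sign-flip test, p = 0.0312, adjusted p 0.0469). For both marks the exact test without any single heart list gave an adjusted p of 0.0938, because 5 lists cannot give a p under 0.0625. H3K4me1 went the other way by −5.50 ± 9.14 points (n = 5, exact sign-flip test, p = 0.5), from 2 lists only, and by −1.60 points without 33017.

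**Figure D4:**
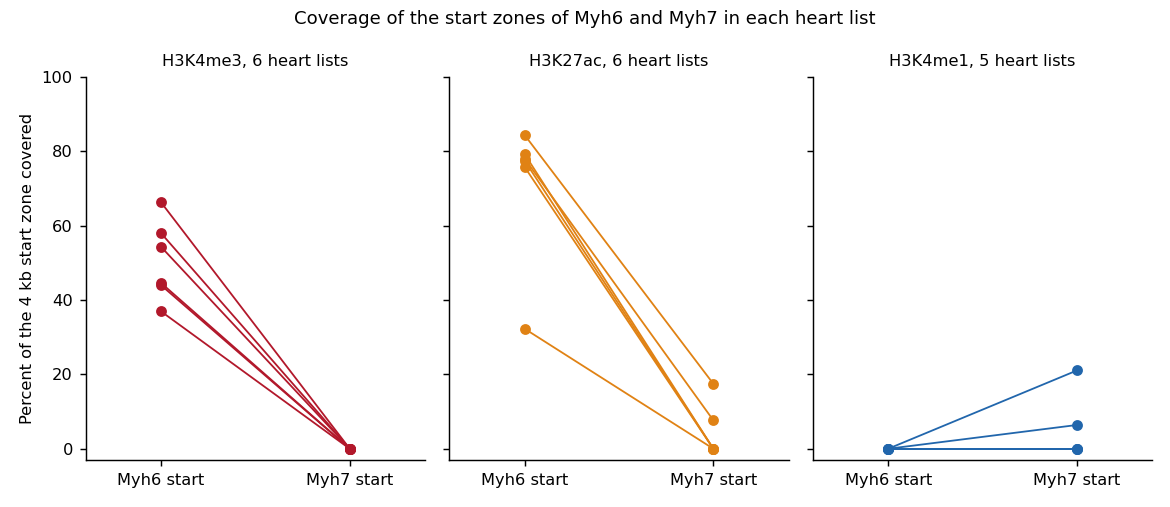
Percent of the 4 kb around each gene start covered by peaks, with lines that join the 2 genes within 1 heart list. Every H3K4me3 line falls to 0 at Myh7, 2 of the 6 H3K27ac lines end above 0 there, and 2 of the 5 H3K4me1 lines rise.

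The deposited fold could be set side by side at both starts in 2 H3K27ac lists only. In 33018 the highest fold was 18.6 at Myh6 and 5.05 at Myh7. In 73317 it was 20.5 at Myh6 and 4.44 at Myh7. The log2 ratio averaged 2.04 ± 0.23 (n = 2), where an exact sign-flip test cannot go below p = 0.5. Taken over the whole gene spans, the log2 ratio of the highest folds was 0.75 ± 0.86 for H3K4me3 (higher in Myh6 in 5 of 6 lists, exact sign-flip test, p = 0.0625) and 0.05 ± 0.43 for H3K27ac (3 of 6 lists, p = 0.781). In 9 of these 12 lists the peak with the highest Myh7 fold had its summit between the genes and only reached into Myh7. On the Myh6 side, the H3K27ac lists of 17_36584 and 73317 counted as higher through a peak across the Myh6 start. Its summit lay upstream of that start, which is known to the nearest kb only. In both lists the peaks wholly inside Myh6 had lower folds than the highest Myh7 fold. These ratios therefore do not separate the genes. Without 6837 the H3K4me3 ratio was 0.83 ± 0.93 (4 of 5 lists, exact sign-flip test, p = 0.125).

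Heart was then compared with liver. A peak at the Myh6 start was present in 6 of 6 heart and 0 of 4 liver lists for H3K4me3, and equally for H3K27ac (Fisher's exact test, two-sided, p = 0.00476; Benjamini-Hochberg adjusted over 6 comparisons, 0.0143). Without 6837 the H3K4me3 count was 5 of 5 against 0 of 4, with an adjusted p of 0.0238 by the same exact test. If 50% of a peak or more had to lie inside the zone, the H3K4me3 difference in shares dropped from 100 to 66.7 points (adjusted p 0.229). As background, a peak in every heart list and in no liver list occurred in 1.65% of all 4 kb windows with an H3K4me3 peak, in 6.64% for H3K27ac and in 0.694% for H3K4me1. At the Myh7 start a peak was present in 0 of 6 heart lists for H3K4me3, 2 of 6 for H3K27ac and 2 of 5 for H3K4me1, and in no liver list, and the adjusted p was at least 0.7 by Fisher's exact test. H3K4me1 was absent at the Myh6 start from all 5 heart and 4 liver lists.

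Over the whole Myh6 span, H3K4me3 covered 16.0% in 17_36584, 24.2% in 33016, 24.0% in the pool, 28.1% in 6837, 16.6% in 6839 and 25.9% in 6842, with a mean of 22.5% ± 5.00 in heart (n = 6) and 0% in all 4 liver lists. Every heart list was above every liver list, as in 4.25% of the 32026 windows of 25 kb that hold an H3K4me3 peak. That share was 4.94% without 6837 and 7.23% without 6839. Only 9 of those windows had a heart excess as large as Myh6 or larger. They include the window at this locus, which holds every H3K4me3 peak described here, a mean of 10646 bases in heart. The gene spans split that domain, so its own window exceeded both of them. For the Myh6 span the exact permutation test gave p = 0.00952, the smallest that 6 against 4 allows. The Benjamini-Hochberg adjusted p was 0.158 over all windows. No window passed that adjustment (0 called, percent called 0), while 2285 windows were higher in heart at an unadjusted p under 0.05. Without 6837 the mean excess was 21.3 points and the adjusted p 0.144.

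Myh7 was covered by H3K4me3 to 4.68% in 17_36584, 12.7% in 33016, 8.96% in the pool, 12.8% in 6837, 10.4% in 6839 and 12.8% in 6842, against 0% in liver. The mean was 10.4% ± 3.21 (n = 6, exact permutation test, p = 0.00952, adjusted p 0.158), and 9.90% without 6837. A heart excess of this size or larger was found in 124 windows, again with the window at this locus among them. The count ran from 77 (without the pool) to 176 (without 6839) when 1 heart list was left out. All of the Myh7 coverage came from the last 4 kb, since the rest of the gene was at 0 in every list. That division of the gene was chosen after the data had been seen.

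H3K27ac covered 14.3% ± 7.31 of Myh6 in heart (lowest 3.94%, in the pool; highest 22.7%, in 6837) and 11.7% ± 6.01 of Myh7 (lowest 3.68%, in 17_36584; highest 18.3%, in 73317), with n = 6 each and 0% in all 4 liver lists. Both heart ranges stood clear of liver and both genes passed the threshold (exact permutation test, p = 0.00952, Benjamini-Hochberg adjusted p 0.0255). So did 19.8% of the 39161 windows with an H3K27ac peak in the same direction, and in 17.9% every heart list was above every liver list. Against that background the H3K27ac call at these genes is a common one. The excess at Myh6 was above that of 94.8% of windows and the excess at Myh7 above that of 93.0%. Each span holds only part of the domain, which averaged 3563 bases in Myh6, 3377 between the genes and 2672 in the last 4 kb of Myh7. All of these bases lie in the same 25 kb window, whose excess is therefore larger than that of either span. Leaving out any of the 4 liver lists (85920, 85921, 85923 or 85924) raised the adjusted p of both genes to between 0.0599 and 0.0611. Without its last 4 kb, Myh7 kept 0.738% ± 1.41 (2 of 6 lists above 0, adjusted p 0.802 by the exact permutation test).

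**Figure D5:**
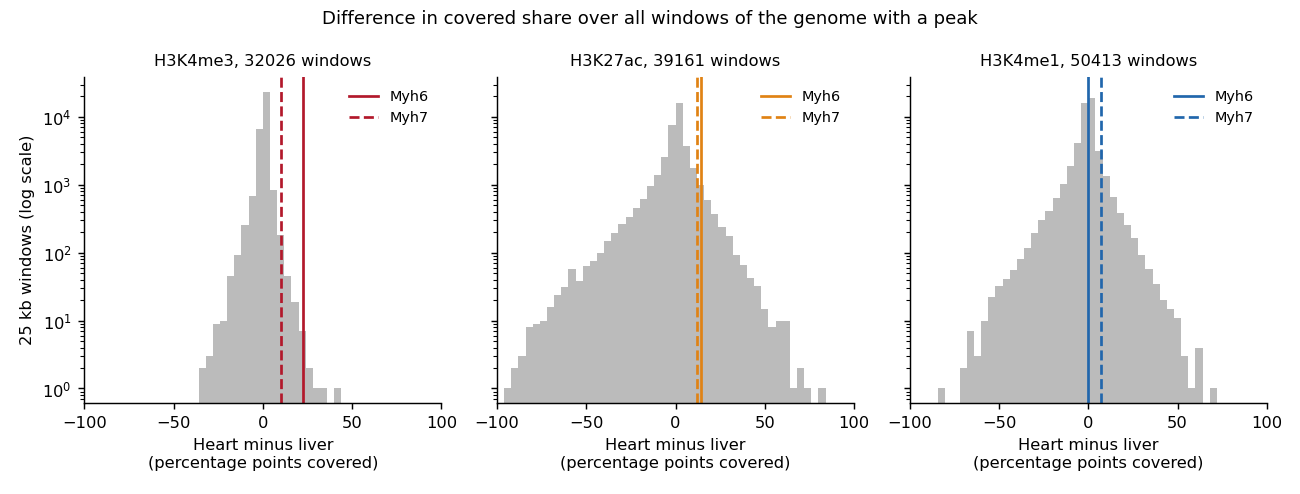
Heart minus liver in percent of bases covered, over all 25 kb windows with a peak of the mark (grey bars, window count on a log scale), with lines at the 2 genes. The window that holds the H3K4me3 and H3K27ac domain on both sides of the Myh6 start is among the grey bars. For H3K4me3 the Myh6 line at 22.5 points lies at the edge of the distribution and the Myh7 line at 10.4 points near it, while for H3K27ac and H3K4me1 both lines fall among many windows.

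H3K4me1 peaks lay over the middle of Myh7 in 3 of 5 heart lists, where neither of the other marks formed a domain. The whole Myh7 span was covered to 15.6% in 17_3498, 11.4% in 17_3500 and 8.34% in 33017, and to 0% in 17_3501 and the pool. The lists with and without peaks split the heart group, and the 4 liver lists were all at 0. The mean was 7.07% ± 6.94 (n = 5), and the difference from liver missed the threshold (exact permutation test, p = 0.238, adjusted p 0.498). Of the heart H3K4me1 lists, 17_3498, 17_3500 and 17_3501 come from a library series with another name prefix than the remaining 2 heart lists and all 4 liver lists, so series and tissue partly coincide. Within the shared series the heart excess was 4.17 points, from 33017 and the pool. The excess was 0 when each list was cut to the 20521 strongest peaks, the length of the shortest list. Among the 50413 windows with an H3K4me1 peak, 1.24% had every heart list above every liver list, a share that was 12.2% without the pool. No window passed the adjusted exact permutation test in favour of heart (percent called 0), and 1421 were higher in heart at an unadjusted p under 0.05. Within the Myh7 gene body the H3K4me1 folds were modest, 7.96 at most in 17_3498, 6.46 in 17_3500 and 5.11 in 33017.

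Over the whole spans, Myh6 minus Myh7 in percent covered by H3K4me3 was 12.1 ± 3.31 points in heart (n = 6, positive in 6 of 6 lists). Within heart this missed the threshold after adjustment (exact sign-flip test, p = 0.0312, Benjamini-Hochberg adjusted over 3 marks, 0.0938), and without 6837 it was 11.4 ± 3.27 points (n = 5, exact sign-flip test, p = 0.0625). Liver lists had no H3K4me3 or H3K27ac peak here and no H3K4me1 peak over either gene, so their contrast was 0 throughout, and a comparison between tissues tests the heart contrast against those zeros only. That comparison gave p = 0.00952 by an exact permutation test for H3K4me3 (adjusted over 3 marks, 0.0286; 0.0476 without 6837). With any of the 4 liver lists (85920, 85921, 85923 or 85924) left out, the adjusted p was 0.0714. Widening each span by 2 kb gave each gene the nearer 2 kb of the space between them. That left 5.18 points and an adjusted p of 0.143 by the exact permutation test. The 2 bins of 1 kb nearer Myh6 were covered by heart H3K4me3 to 31.5% and 22.6% on average. Both bins nearer Myh7 were at 100%. For H3K27ac the contrast was 2.50 ± 3.88 points (5 of 6 lists, adjusted p 0.157), so a heart preference for Myh6 over Myh7 in covered share was not shown for this mark over whole spans. It was 1.03 points without 6837, and 3.23 points with an adjusted p of 0.0238 by the exact permutation test without the pool. For H3K4me1 it was −7.07 ± 6.94 points (n = 5, adjusted p 0.238 by the exact permutation test), and −4.17 points within the shared library series.

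Upstream of Myh7, H3K27ac had peaks in the 8 kb zone in all 6 heart lists and in none of the 4 liver lists. The highest summit lay 9279 to 9415 bases upstream of the Myh7 start in 4 lists, and 9938 and 9972 bases upstream in 6837 and the pool. The peak of the pool overlaps none of the highest peaks of 17_36584, 6839 and 73317, so these values do not describe 1 shared peak. It does overlap a second, lower peak in each of those lists. H3K27ac covered chr14:55004868-55005000, which ends at the edge of the window, in all 6 heart lists. The highest fold in the zone was 6.84 in 17_36584, 13.9 in 33018, 7.49 in the pool, 10.5 in 6837, 10.3 in 6839 and 16.9 in 73317, higher than 74.2% to 93.9% of the peaks of the same list. Peaks ran on past the edge of the window, so the covered bases counted inside it are cut short. H3K4me1 was present in the same 8 kb in 4 of 5 heart lists. The peak of highest fold in each had its summit 7551 to 9344 bases upstream and a fold of 4.01 to 5.62. The lists of 17_3498 and 33017 had further, lower peaks in the zone. H3K4me1 was also present in the liver list of animal 85924, where the higher of 2 peaks had its summit 9487 bases upstream and a fold of 5.60. The lower had a fold of 4.10. No H3K4me3 peak was found there in any list. H3K4me1 peaks lay at chr14:55004060-55004605 in 17_3498, chr14:55004227-55004525 in 17_3500 and chr14:55004079-55004590 in 33017. All of these lay inside H3K27ac peaks of other hearts, chr14:55003410-55005809 in 33018 and chr14:55003147-55004652 in 73317.

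The input controls divide along the same line as the tissues. Heart lists were called against 5 input libraries, with the animal's own input in 4 of 17 lists, and liver lists against 4 input libraries, always the animal's own. No input served both tissues, so tissue and input cannot be told apart.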

How the data were processed

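ChIP-seq peak lists of mouse heart and liver were used as deposited, 1 list per library. Per the submitters' processing notes the peak caller was MACS2; the version, aligner and read depth were not given in those notes. The build, GRCm38, and the input of each list are per the file names. The authors' fold column is a linear ratio of signal to background, and the deposited −log10 q of every peak was at least 1.3. Folds were used within a list only.

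The 2 genes, the window and the zones were chosen with earlier results of these data known, and zones inside the genes after seeing the peaks. The rule for named genes gave Myh6 and Myh7. Gene spans are rounded to 1 kb. The planned marker and sarcomere gene lists need a GRCm38 annotation and were not used here, so labels were checked by list overlap, and no sequence is shown.

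Overlapping peaks of a list were merged. Percent covered was compared between heart and liver with a two-sided exact permutation test over lists, adjusted (Benjamini-Hochberg, threshold 0.05) over both genes and all 25 kb windows with a peak, run first on simulated data. Presence within 2 kb of a start was compared with Fisher's exact test over 6 comparisons. Within heart lists a sign-flip test was planned on folds at both starts. These exist in 2 lists only, so the percent of the start zone covered carries that comparison. Replicates are separate animals, per the labels. Alternatives were a −log10 q of at least 4, equal list lengths, other zones and spans, peak counts, 1 library series, and each list left out. Python 3.11.15, NumPy 2.4.6, pandas 2.3.3, SciPy 1.17.1 and Matplotlib 3.10.9 were used.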

Additional observations from a re-analysis of the deposited data

Results flagged for a closer look

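The widest H3K4me3 peak inside Myh6 in the heart list of animal 6837 measured 6000 bases, and the next widest of the 6 lists measured 4260. This is the library whose peaks elsewhere were nearer to the liver lists, and no liver list has a peak here. The H3K27ac list of the pool covered 54.1% of the space between the genes, far below the other 5 heart lists, of which the next lowest covered 83.5%. The liver H3K4me1 list of animal 85924 covered 10.96% of the 8 kb upstream of Myh7, and the other 3 liver lists covered 0%. That list is also the longest of the liver H3K4me1 lists, with 113889 peaks; the part of list length in this was not tested. Of 26 sets of values examined for 1 value far from the rest, 3 had one, and chance gives about 1 in 20 where values vary continuously. In the liver H3K4me1 set the other 3 lists were at 0%, so any value above 0 would have been flagged. Myh6 minus Myh7 in percent covered by H3K4me3 was 12.1 points in heart, set against a liver value of 0 that follows from the absence of any liver peak there. Within heart alone the same 12.1 points had an adjusted p of 0.0938 by the exact sign-flip test.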

How the results depend on the processing

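Of 250 recomputed values of 19 results, 220 stayed on their side of the threshold, 29 kept the direction but lost the threshold, 1 newly passed it and 0 turned. Of the 220, 43 belong to results that are 0 and have no direction, and 5 others became 0. Lost were the H3K4me3 contrast between genes and tissues with spans widened by 2 kb (5.18 points), the H3K4me3 peak at the Myh6 start with 50% of the peak required inside (66.7 points), H3K27ac over Myh7 without its last 4 kb (0.738 points, chosen after seeing the data), and the difference between start zones taken over whole genes (12.1 points for H3K4me3, 2.50 for H3K27ac). With 1 list left out, values ranged as follows. The contrast between genes and tissues ran from 11.4 to 13.2 points for H3K4me3 and from 1.03 to 3.23 for H3K27ac. H3K27ac coverage ran from 12.6 to 16.3 points for Myh6 and from 10.4 to 13.4 for Myh7. The start zone difference ran from 47.6 to 53.5 points for H3K4me3, from 64.6 to 74.0 for H3K27ac and from −6.87 to −1.60 for H3K4me1. Fewer lists raise the smallest p that an exact test can give. Under the overlap rule, the heart lists without a counted H3K4me3 peak were 6839 and 6842, which lack the small peak just upstream of the Myh6 start. For the widened span, the overlap rule and the pool, the cause was not tested. No paired analysis was possible because no mouse gave both a liver and a heart list. Read depth is unknown, so a missing peak says only that none was called at the deposited threshold. The alternative with libraries of 1 series only could be formed for H3K4me1 alone, since all other lists are of that series.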

Other observations

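Some peaks recurred between lists without being described above. H3K27ac in the pool and in 73317 had a peak deep inside Myh6, at chr14:54952351-54952560 (fold 5.14) and chr14:54952282-54952906 (fold 5.68), and these 2 peaks overlap. The other 4 heart lists had none there. H3K4me1 had peaks at the downstream edge of the window in 2 heart lists, chr14:54929882-54930256 in 17_3500 (fold 5.73) and chr14:54930012-54930813 in 33017 (fold 3.68), which also overlap. H3K27ac peaks about 2 kb upstream of the Myh7 start recurred in 33018, 6837 and 73317, at chr14:54996908-54997768, chr14:54997043-54997712 and chr14:54997159-54997736, with folds of 5.05, 5.94 and 5.55. An H3K4me1 peak of 17_3498 at chr14:54996745-54997215 (fold 4.95) overlaps all 3. These places were picked out after the peaks had been seen, and no test was made on them.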
